A study of Mus musculus with 9 samples.

Results

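Homeobox genes encode transcription factors that bind DNA through a homeodomain. The transcription-factor annotation in the authors' deposited count table assigned 225 of 56748 genes to the Homeobox family, and those 225 protein-coding genes are described here across all 9 brain libraries. No count fell on 68 of them in any library, 77 had counts but were too low to be tested, and 80 passed the filter on low counts. Factors with a homeodomain that the table files under another family, such as the OTX, CUT, POU and PROX factors, were not included.

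The libraries were bulk RNA sequencing of brain tissue from 7-month-old mice, labelled as taken without the cerebellum, with 3 mice per genotype and 1 library per mouse. The 5xFAD/Cd5l tg/wt mice carried the 5xFAD transgenes and, in addition, mouse Cd5l under the human PDGF-B promoter. The 5xFAD mice carried the amyloid transgenes, which include mutant human APP under the neuronal Thy1 promoter, without the Cd5l transgene, and the wild-type mice carried neither. Of these genotypes, 5xFAD/Cd5l tg/wt was compared with 5xFAD, and each of them with wild-type. Sex and strain background are not given in the labels.

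Homeobox factors pattern the embryonic brain along its length, and many stay switched on in adult neurons of the region in which they acted. Emx and Lhx2 factors mark the cerebral cortex, Dlx and Lhx6 factors forebrain inhibitory neurons, Otp and Nkx2-1 the hypothalamus, Iroquois and Shox2 factors parts of the thalamus and midbrain, and Engrailed factors the midbrain and cerebellum. Hox genes are active in the hindbrain and spinal cord and take no part in patterning the forebrain or midbrain. Within a Hox cluster, genes of low paralog number are active furthest forward and genes of high number only further back. A bulk library sums over all cells, so that fewer cells of a type and less RNA per cell cannot be told apart.

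The libraries held 14575416 to 17865150 counts, and homeobox genes took 0.113% to 0.140% of them. Values are read counts, or CPM, a library's counts scaled to a common total. A count of 3, taken as the floor, was worth 0.168 to 0.207 CPM, depending on the size of the library. The floor covers counting error only. Of the 80 tested genes, 25 averaged at least 10 CPM, 42 averaged 1 to 10 CPM and 13 less than 1 CPM. The genotype labels were borne out by Cd5l (169.98, 190.30 and 200.36 CPM across 5xFAD/Cd5l tg/wt, 0, 0 and 0 CPM across 5xFAD and 0, 0.0608 and 0 CPM across wild-type libraries) and by the plaque-associated microglial gene Cst7 (38.7, 28.9 and 31.2 CPM across 5xFAD/Cd5l tg/wt, 29.5, 20.2 and 39.9 CPM across 5xFAD and 0.233, 0.182 and 0.207 CPM across wild-type libraries). Neuronal, astrocyte, oligodendrocyte and microglial markers were present in every library, and the pituitary hormone genes Prl, Gh, Cga, Tshb and Lhb summed to at most 1.27 CPM.

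For these genes 3 of the 9 libraries differed from the rest, namely those of 5xFAD/Cd5l tg/wt mice 2 and 3 and of wild-type mouse 3, and the calls between genotypes are given with and without them. The 3 were picked with the values of these genes known, which by itself can make differences without them smaller. A lone 5xFAD/Cd5l tg/wt library is then left, so a call of that genotype can be lost through the smaller number of libraries alone. The highest value of 28 of the 80 tested homeobox genes (35%) lay in wild-type library 3, which held the highest value of 16.4% of all 17575 tested genes. The lowest value lay in 5xFAD/Cd5l tg/wt library 2 for 30 homeobox genes (37.5%, against 15.7% of all tested genes). Both 5xFAD/Cd5l tg/wt libraries 2 and 3 were below each of the other 7 libraries for 26 homeobox genes (32.5%, against 8.89% of all tested genes) and above each of them for 4 (5%, against 8.77%). The spread within a genotype was wide in all but the 5xFAD mice. The highest and lowest library differed more than 2-fold, after 0.1 CPM was added, for 37 homeobox genes in 5xFAD/Cd5l tg/wt mice (46.3%, against 10.7% of all tested genes), for 5 in 5xFAD mice (6.25%, against 6.498%) and for 22 in wild-type mice (27.5%, against 8.79%).

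**Figure D1:**
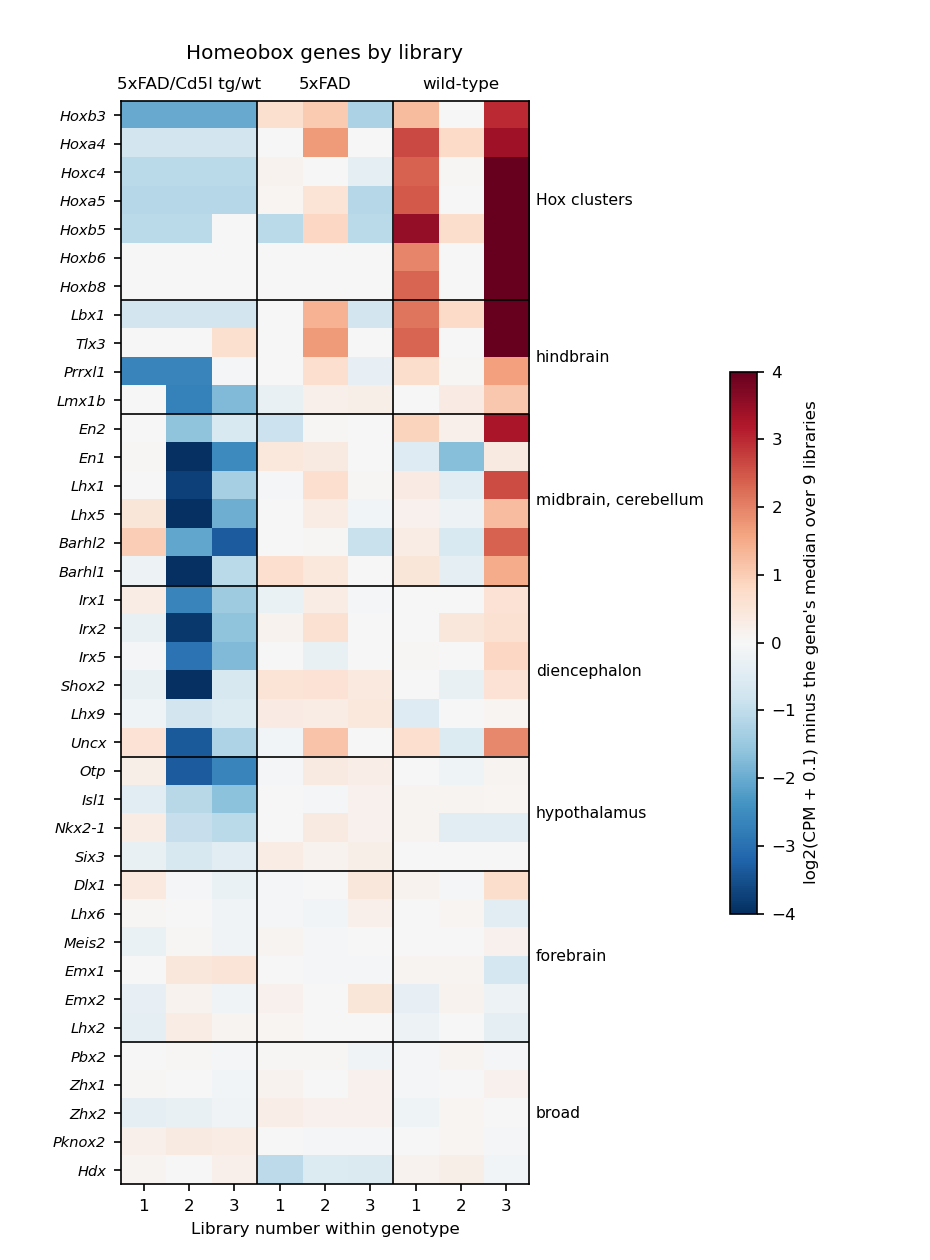
Each row is 1 homeobox gene and each column 1 library, and colour gives log2(CPM + 0.1) minus the gene's median over the 9 libraries, with red above and blue below it. Wild-type library 3 is red for the Hox, hindbrain and cerebellar genes, 5xFAD/Cd5l tg/wt libraries 2 and 3 are blue for the midbrain, diencephalic and hypothalamic genes, and the forebrain and broadly expressed genes below them vary less.

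The proximal promoters of 6 genes are printed here because their transcripts carry the patterns described next: Hoxa5 and Lhx1 were highest in wild-type library 3, Otp and Irx2 were lowest in 5xFAD/Cd5l tg/wt libraries 2 and 3, and Six3 and Hdx passed the test between genotypes. Each is the 250 bases before the gene's start in RefSeq, build GRCm38.p6, an older build than the GRCm39 of the count table, read 5′ to 3′ on the gene's strand. Hoxa5 lies at chr6:52204588-52204837 on the minus strand, Lhx1 at chr11:84525535-84525784 on the minus strand, Otp at chr13:94875386-94875635 on the plus strand, Irx2 at chr13:72628570-72628819 on the plus strand, Six3 at chr17:85620584-85620833 on the plus strand and Hdx at chrX:111697080-111697329 on the minus strand. Capitals mark CCAAT and GGGCGG on either strand.
Hoxa5: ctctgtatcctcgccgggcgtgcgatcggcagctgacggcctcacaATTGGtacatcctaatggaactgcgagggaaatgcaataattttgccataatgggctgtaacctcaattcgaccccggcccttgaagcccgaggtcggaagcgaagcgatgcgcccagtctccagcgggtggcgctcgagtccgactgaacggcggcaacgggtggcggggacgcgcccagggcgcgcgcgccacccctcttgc
Lhx1: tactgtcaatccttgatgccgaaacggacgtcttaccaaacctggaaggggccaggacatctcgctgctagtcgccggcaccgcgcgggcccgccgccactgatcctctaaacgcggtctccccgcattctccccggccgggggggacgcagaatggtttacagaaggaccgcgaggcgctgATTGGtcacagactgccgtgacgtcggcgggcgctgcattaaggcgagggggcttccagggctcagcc
Otp: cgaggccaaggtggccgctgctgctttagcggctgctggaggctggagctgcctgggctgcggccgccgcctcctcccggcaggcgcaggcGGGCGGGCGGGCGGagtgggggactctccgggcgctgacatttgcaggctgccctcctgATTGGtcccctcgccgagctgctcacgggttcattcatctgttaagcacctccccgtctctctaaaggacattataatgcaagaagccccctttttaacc
Irx2: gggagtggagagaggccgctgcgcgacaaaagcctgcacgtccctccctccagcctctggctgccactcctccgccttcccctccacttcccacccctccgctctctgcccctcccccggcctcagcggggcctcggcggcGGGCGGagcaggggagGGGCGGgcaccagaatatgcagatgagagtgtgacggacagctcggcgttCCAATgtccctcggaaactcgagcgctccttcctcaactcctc
Six3: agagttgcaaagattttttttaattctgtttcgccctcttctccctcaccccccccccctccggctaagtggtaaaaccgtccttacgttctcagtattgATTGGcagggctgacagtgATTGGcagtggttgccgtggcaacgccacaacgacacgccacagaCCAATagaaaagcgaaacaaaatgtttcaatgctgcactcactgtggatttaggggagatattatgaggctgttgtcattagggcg
Hdx: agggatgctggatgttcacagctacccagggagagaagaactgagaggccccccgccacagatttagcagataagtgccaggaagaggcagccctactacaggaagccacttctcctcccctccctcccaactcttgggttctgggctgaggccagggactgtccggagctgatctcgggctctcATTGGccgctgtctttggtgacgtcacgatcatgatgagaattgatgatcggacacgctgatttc
CCAAT was present in each of the 6 windows, with 3 matches in Six3, and GGGCGG in those of Otp (3 overlapping matches) and Irx2 (2 matches). Of the 225 homeobox genes, 152 had a promoter in the RefSeq table. CCAAT stood in 73 of these (48.0%), against 34.5% of all 27025 promoters, and GGGCGG in 67 (44.1%), against 32.9%. None of the 6 windows held TATAAA (11.8% of homeobox promoters, 12.97% of all), the homeodomain core TAATTA (3.29%, against 4.90%) or TGATNNAT, a motif of PBX bound with HOX factors (5.92%, against 7.91%). The median number of CpG dinucleotides in the 250 bases was 12 in homeobox promoters and 6 in all promoters. These matches were searched on both strands and describe letters only.

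Hox genes were counted mainly in wild-type libraries, which held 774 of their 866 counts. Of 39 Hox genes in the table, 23 had any count, 1 (Hoxb3) was tested, and together they held 866 counts in the 9 libraries. Their summed counts were 2, 11 and 6 in 5xFAD/Cd5l tg/wt libraries 1, 2 and 3, 18, 44 and 11 in 5xFAD libraries, and 169, 35 and 570 in wild-type libraries. Wild-type library 3 thus held 65.8% of all Hox counts, and it had the highest CPM for 19 of the 23 counted genes. The 5xFAD/Cd5l tg/wt libraries did not overlap with wild-type, and 5xFAD overlapped wild-type through 5xFAD library 2 at 44 and wild-type library 2 at 35 counts.

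By paralog group, counts were highest in the middle of the clusters. In wild-type library 3 the sums were 14, 33, 76, 122, 235, 36, 15 and 39 counts for paralog groups 1 to 8. The same groups held 5, 12, 27, 39, 64, 8, 4 and 9 counts in wild-type library 1. Paralog groups 9 to 13, with 16 genes, had 4 counts over all 9 libraries, against 862 for the 23 genes of groups 1 to 8. Group 5 was the highest in both wild-type libraries, and its counts came mainly from Hoxb5 and Hoxa5. All 4 clusters contributed, with 164, 297, 78 and 31 counts from clusters A, B, C and D in wild-type library 3.

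**Figure D2:**
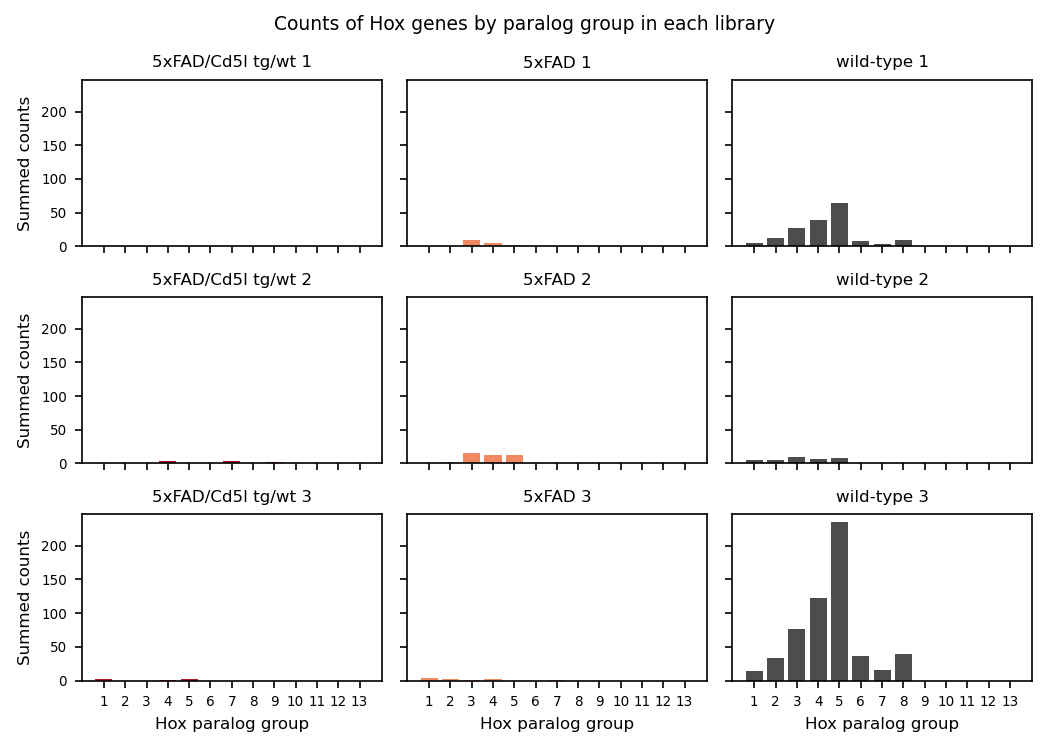
Bars give summed read counts of the Hox genes in each paralog group, 1 panel per library, with a common linear axis. Wild-type libraries 3 and 1 peak at paralog group 5 with 235 and 64 counts, and no panel shows more than 2 counts beyond group 8.

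Single Hox genes were highest in the same wild-type libraries. Hoxb5 (chromosome 11, 96194162 to 96196947, GRCm39) had 0, 0 and 2 counts across 5xFAD/Cd5l tg/wt, 0, 5 and 0 counts across 5xFAD and 40, 4 and 115 counts across wild-type libraries. Hoxa5 had 0, 0 and 0 counts across 5xFAD/Cd5l tg/wt, 2, 4 and 0 counts across 5xFAD and 19, 2 and 95 counts across wild-type libraries, and Hoxc4 had 0, 0 and 0 counts across 5xFAD/Cd5l tg/wt, 2, 2 and 1 counts across 5xFAD and 17, 2 and 52 counts across wild-type libraries. Hoxa4 had 0, 0 and 0 counts across 5xFAD/Cd5l tg/wt, 1, 8 and 1 counts across 5xFAD and 16, 3 and 24 counts across wild-type libraries. In all of these wild-type library 3 was highest and wild-type library 1 second. Hoxb6 and Hoxb8, from further back in cluster B, had 32 and 38 counts in wild-type library 3, 5 and 7 in wild-type library 1, and none in the other 7 libraries, which for a single library allows up to the floor of 3 counts. Hoxb2, Hoxa2, Hoxa3, Hoxb4, Hoxc5, Hoxd3 and Hoxd4 had 10 to 35 counts in wild-type library 3 and at most 9 in any other library. Hoxb3 had 0, 0 and 0 counts across 5xFAD/Cd5l tg/wt, 8, 13 and 1 counts across 5xFAD and 15, 5 and 45 counts across wild-type libraries, and its difference did not pass in edgeR in any comparison. DESeq2 called it as a fall in 5xFAD/Cd5l tg/wt against 5xFAD and against wild-type, and limma-voom against wild-type.

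Some other hindbrain factors, such as Lbx1 and Tlx3, stood with the Hox genes, and others did so in part or not at all. Lbx1, which specifies dorsal hindbrain and spinal cord interneurons, had 0, 0 and 0 counts across 5xFAD/Cd5l tg/wt, 1, 6 and 0 counts across 5xFAD and 11, 3 and 41 counts across wild-type libraries. Tlx3, a selector of excitatory over inhibitory fate in the same regions, had 0, 0 and 1 counts across 5xFAD/Cd5l tg/wt, 0, 4 and 0 counts across 5xFAD and 7, 0 and 24 counts across wild-type libraries. For both genes wild-type library 3 was the highest and wild-type library 1 second. Prrxl1, a factor of somatosensory relay neurons, had 0, 0 and 0.508 CPM across 5xFAD/Cd5l tg/wt, 0.529, 0.898 and 0.402 CPM across 5xFAD and 0.9302, 0.547 and 1.87 CPM across wild-type libraries. Lmx1b, needed for serotonergic neurons, had 0.999, 0.0674 and 0.226 CPM across 5xFAD/Cd5l tg/wt, 0.794, 1.18 and 1.205 CPM across 5xFAD and 0.988, 1.28 and 2.21 CPM across wild-type libraries, and Nkx6-1, a ventral progenitor factor kept in brainstem motor neurons, had 0.732, 0.0674 and 0.113 CPM across 5xFAD/Cd5l tg/wt, 0.662, 0.786 and 0.468 CPM across 5xFAD and 1.105, 0.973 and 1.66 CPM across wild-type libraries. Both were at or below the floor in 5xFAD/Cd5l tg/wt library 2. Evx2 had 0, 0 and 9 counts across 5xFAD/Cd5l tg/wt, 9, 8 and 13 counts across 5xFAD and 4, 9 and 7 counts across wild-type libraries, which followed no such order, and Dbx2, at 8.31 to 14.8 CPM, overlapped between all genotypes. The hindbrain and brainstem list of 15 genes summed to 38.2, 22.9 and 30.9 CPM across 5xFAD/Cd5l tg/wt, 30.97, 35.7 and 34.8 CPM across 5xFAD and 40.1, 37.6 and 44.1 CPM across wild-type libraries. Most of this sum came from Dbx2 together with Nkx6-2, which mature oligodendrocytes also express.

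Of the 5 hindbrain transmitter markers, Slc6a5, Slc6a2 and Dbh were highest in wild-type library 3, as most Hox genes were, and the serotonergic Tph2 and Slc6a4 were not. The glycine transporter Slc6a5 of hindbrain and spinal inhibitory neurons had 2.66, 0.337 and 2.26 CPM across 5xFAD/Cd5l tg/wt, 7.02, 12.3 and 2.48 CPM across 5xFAD and 28.9, 11.7 and 57.7 CPM across wild-type libraries. Its 5 highest libraries were wild-type 3, wild-type 1, 5xFAD 2, wild-type 2 and 5xFAD 1, the same 5 in the same order as for the summed Hox CPM. Tph2, the serotonin-synthesising hydroxylase, had 13.2, 0.944 and 0.959 CPM across 5xFAD/Cd5l tg/wt, 6.55, 6.45 and 14.99 CPM across 5xFAD and 4.13, 2.68 and 9.06 CPM across wild-type libraries, and the serotonin transporter Slc6a4 had 5.46, 0 and 0.113 CPM across 5xFAD/Cd5l tg/wt, 2.51, 2.36 and 9.17 CPM across 5xFAD and 1.63, 1.09 and 4.702 CPM across wild-type libraries. Both were highest in 5xFAD library 3 and second in 5xFAD/Cd5l tg/wt library 1, and lowest in libraries 2 and 3 of that genotype. The 5 cerebellar markers Gabra6, Cbln3, Fat2, Pcp2 and Car8 summed to 12.9, 14.6 and 12.1 CPM across 5xFAD/Cd5l tg/wt, 13.5, 31.8 and 15.99 CPM across 5xFAD and 62.1, 18.2 and 652 CPM across wild-type libraries, although the tissue is labelled as lacking the cerebellum. The part of residual hindbrain or cerebellum in the differences between genotypes was not tested.

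Engrailed and LIM factors of the midbrain and cerebellum split the libraries in both directions. En2, retained in cerebellar granule cells (chromosome 5, 28370692 to 28377164), had 2.46, 0.742 and 1.58 CPM across the 3 mice of 5xFAD/Cd5l tg/wt, 1.32, 2.53 and 2.41 CPM across those of 5xFAD, and 4.65, 2.86 and 24.4 CPM across those of wild-type. Wild-type library 3 lay far above the other 8, and all 3 wild-type libraries were above those of both other genotypes, which overlapped. Lhx1, a factor of Purkinje cells and other GABAergic hindbrain neurons, had 2.13, 0.0674 and 0.7899 CPM across the 3 mice of 5xFAD/Cd5l tg/wt, 2.05, 3.42 and 2.21 CPM across those of 5xFAD, and 2.67, 1.52 and 13.6 CPM across those of wild-type. Meis1, a TALE factor present in granule cells, had 17.4 CPM in wild-type library 3 and 4.92 to 7.897 CPM in the other 8. Wild-type library 3 exceeded the next library more than 2-fold for 6 of the 80 tested homeobox genes, namely Meis1, En2, Lhx1, Barhl2, Prrxl1 and Hoxb3 (7.5%, against 0.478% of all tested genes).

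At the low end, En1, which midbrain dopamine neurons need, had 1.86, 0 and 0.226 CPM across 5xFAD/Cd5l tg/wt, 2.45, 2.36 and 1.81 CPM across 5xFAD and 1.22, 0.486 and 2.35 CPM across wild-type libraries. Barhl1 and Barhl2 are factors of granule cells and of diencephalic and brainstem neurons. In 5xFAD/Cd5l tg/wt mouse 2 they reached 0 and 0.2697 CPM, and in mouse 3 of that genotype 0.677 and 0.0564 CPM. Across the other 7 libraries they ranged over 1.16 to 4.49 CPM and 0.736 to 7.95 CPM. Lhx5, a factor of early midbrain and cerebellar GABAergic neurons, had 2.93, 0 and 0.451 CPM across 5xFAD/Cd5l tg/wt, 2.05, 2.53 and 1.87 CPM across 5xFAD and 2.33, 1.76 and 4.91 CPM across wild-type libraries. For En1, Lhx5 and Barhl1 the library of 5xFAD/Cd5l tg/wt mouse 1 lay within the range of the 5xFAD and wild-type libraries. Sebox, at 1.53 to 3.102 CPM, had its highest value in 5xFAD/Cd5l tg/wt library 2. Summed over its 11 genes, the midbrain and cerebellum list had 18.98, 4.52 and 8.18 CPM across 5xFAD/Cd5l tg/wt, 17.3, 21.3 and 18.2 CPM across 5xFAD and 19.8, 14.2 and 65.3 CPM across wild-type libraries.

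Diencephalic and hypothalamic factors were low in 5xFAD/Cd5l tg/wt libraries 2 and 3. Otp, which specifies neuroendocrine neurons of the hypothalamus (chromosome 13, 95012110 to 95021638), had 3.53, 0.202 and 0.395 CPM across the 3 mice of 5xFAD/Cd5l tg/wt, 2.85, 3.87 and 3.61 CPM across those of 5xFAD, and 2.96, 2.61 and 3.18 CPM across those of wild-type. Irx2, an Iroquois factor of the thalamus and midbrain (chromosome 13, 72776939 to 72782317), had 3.46, 0.202 and 1.35 CPM across the 3 mice of 5xFAD/Cd5l tg/wt, 4.77, 6.62 and 4.28 CPM across those of 5xFAD, and 4.302, 5.898 and 6.64 CPM across those of wild-type. Libraries 2 and 3 lay below the other 7 for both genes, while library 1 of the same genotype was among the others for Otp and below them for Irx2. Irx1 and Irx5 showed the same 2 low libraries, at 0.405 and 1.07 CPM and at 0.0674 and 0.282 CPM, against 2.51 to 4.56 CPM and 0.954 to 2.21 CPM elsewhere. Both libraries were under 50% of the lowest of the other 7 for 12 homeobox genes (15%, against 0.427% of all tested genes), among them Irx1, Irx2, Irx5, Otp, Lhx5, Barhl2, En1, Gbx1, Lmx1b, Nkx6-1 and Dmbx1.

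Shox2, a factor of thalamic neurons, had 6.79, 0.202 and 5.42 CPM across 5xFAD/Cd5l tg/wt, 12.4, 12.5 and 11.2 CPM across 5xFAD and 8.43, 6.81 and 12.6 CPM across wild-type libraries, so that the library of 5xFAD/Cd5l tg/wt mouse 2 was far below the other 8. The gene overlaps Rsrc1 on the other strand, and the strandedness of the counts is not given in the sources used here. Uncx, a paired-type homeobox factor, had no count in 5xFAD/Cd5l tg/wt library 2. Mouse 3 of that genotype had 0.339 CPM, against 0.608 to 3.803 CPM in the other 7 libraries. Of low-count hypothalamic factors Bsx was placed likewise, while Six6 and Nkx2-4 were at or below the floor of 3 counts in several other libraries too. Bsx, a factor of feeding neurons in the arcuate nucleus, had 18, 1 and 0 counts across 5xFAD/Cd5l tg/wt, 8, 12 and 9 counts across 5xFAD and 7, 9 and 7 counts across wild-type libraries. Six6 had 12, 0 and 0 counts across 5xFAD/Cd5l tg/wt, 1, 9 and 7 counts across 5xFAD and 9, 0 and 2 counts across wild-type libraries, and Nkx2-4 had 11, 0 and 0 counts across 5xFAD/Cd5l tg/wt, 1, 5 and 3 counts across 5xFAD and 3, 2 and 2 counts across wild-type libraries. For these 3 genes 5xFAD/Cd5l tg/wt library 1 was the highest of the 9, and library 3 had no count. Gsx2, a factor of striatal progenitors, was also highest there, with 13, 2 and 4 counts across 5xFAD/Cd5l tg/wt, 5, 2 and 8 counts across 5xFAD and 3, 3 and 3 counts across wild-type libraries.

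Of the hypothalamic peptide genes, Hcrt, Pmch, Avp, Oxt, Trh and Pomc were lowest in 5xFAD/Cd5l tg/wt libraries 2 and 3, and Agrp was not. Pomc was only slightly lower, at 1.35 and 1.18 CPM against 1.85 to 5.93 CPM in the other 7. Agrp had 0.270 and 0.282 CPM there, against 0 to 0.415 CPM in the other 7. Pmch, the precursor of melanin-concentrating hormone, had 31.2, 0.135 and 0.169 CPM across 5xFAD/Cd5l tg/wt, 27.3, 26.9 and 24.96 CPM across 5xFAD and 38.9, 25.5 and 23.6 CPM across wild-type libraries, and Oxt, the oxytocin precursor, had 14.4, 0 and 0 CPM across 5xFAD/Cd5l tg/wt, 5.96, 14.8 and 11.8 CPM across 5xFAD and 7.73, 3.59 and 5.53 CPM across wild-type libraries. The list of 7 hypothalamic peptides summed to 88.6, 3.44 and 6.21 CPM across 5xFAD/Cd5l tg/wt, 62.7, 80.6 and 79.2 CPM across 5xFAD and 83.7, 51.3 and 54.1 CPM across wild-type libraries. Olfactory bulb markers were low in the same libraries, with a sum of 22.8 and 24.4 CPM in 5xFAD/Cd5l tg/wt libraries 2 and 3 and 64.8 to 182 CPM in the other 7. The sum of the 5 thalamic markers was low in 5xFAD/Cd5l tg/wt library 2 alone. It was 116, 57.3 and 122 CPM across 5xFAD/Cd5l tg/wt and 137, 148 and 152 CPM across 5xFAD libraries. In wild-type libraries it was 109, 129 and 169 CPM. Of single markers Tcf7l2 was also below the other 7 in library 3, at 21.0 CPM against 23.5 to 43.0 CPM. Prkcd, Lef1, Plekhg1 and Synpo2 were not. The part of these regions in the differences between genotypes was not tested.

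Forebrain factors were present in all libraries. Lhx2, which is needed for the cortical field, had 38.8, 60.5 and 53.3 CPM across 5xFAD/Cd5l tg/wt, 51.95, 48.6 and 49.5 CPM across 5xFAD and 42.7, 50.5 and 37.5 CPM across wild-type libraries. Emx1, a factor of cortical excitatory neurons, had 10.9, 14.9 and 15.7 CPM across 5xFAD/Cd5l tg/wt, 10.9, 10.6 and 10.4 CPM across 5xFAD and 11.7, 11.7 and 6.71 CPM across wild-type libraries, the highest in 5xFAD/Cd5l tg/wt libraries 2 and 3 and the lowest in wild-type library 3. Emx2 had 5.93, 8.29 and 6.77 CPM across 5xFAD/Cd5l tg/wt, 8.47, 7.46 and 10.5 CPM across 5xFAD and 5.87, 8.21 and 6.43 CPM across wild-type libraries. The cortex and hippocampus list of 5 genes summed to 56.99, 86.9 and 79.1 CPM across 5xFAD/Cd5l tg/wt, 73.1, 69.1 and 72.4 CPM across 5xFAD and 62.7, 72.9 and 51.6 CPM across wild-type libraries. Dlx1, a factor of inhibitory interneurons, had 28.03, 20.6 and 17.7 CPM across 5xFAD/Cd5l tg/wt, 20.8, 21.3 and 29.4 CPM across 5xFAD and 23.6, 20.5 and 34.99 CPM across wild-type libraries. Lhx6, kept in interneurons from the medial ganglionic eminence, had 20.2, 19.4 and 17.4 CPM across 5xFAD/Cd5l tg/wt, 18.8, 18.1 and 22.4 CPM across 5xFAD and 19.7, 20.4 and 14.2 CPM across wild-type libraries. For all 5 of these genes each genotype overlapped the others. The 19 genes of the forebrain interneuron and striatal list summed to 279.97, 279 and 254 CPM across 5xFAD/Cd5l tg/wt, 314, 289.91 and 329 CPM across 5xFAD and 300.05, 299.52 and 349.67 CPM across wild-type libraries. In that interneuron and striatal list all 5xFAD/Cd5l tg/wt sums were below those of both other genotypes. No tested gene of the cortex list passed in any comparison.

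The most abundant homeobox transcripts were mainly of broadly expressed genes. Per kilobase of gene length the highest mean levels over the 9 libraries included those of Hopx (16.9 CPM per kb), Pbx2 (13.7), Zhx1 (13.3), Meis2 (12.3), Lhx2 (10.96), Nkx6-2 (9.58), Meis3 (6.99), Hmbox1 (6.02) and Pknox2 (5.91 CPM per kb). Pbx2, a partner of Hox and Meis proteins on DNA, had 49.9, 51.8 and 48.2 CPM across 5xFAD/Cd5l tg/wt, 52.02, 51.9 and 45.5 CPM across 5xFAD and 48.8, 54.1 and 46.9 CPM across wild-type libraries, and Zhx1, a zinc-finger homeobox repressor, had 80.8, 77.3 and 72.6 CPM across 5xFAD/Cd5l tg/wt, 86.4, 78.1 and 87.6 CPM across 5xFAD and 74.2, 78.1 and 88.3 CPM across wild-type libraries. Hopx, an atypical member that does not bind DNA, reached 34.6 CPM in wild-type library 3 and 20.4 to 30.8 CPM elsewhere. The 12 TALE cofactors, a class whose homeodomain carries an extended loop, summed to 531, 569 and 526 CPM across 5xFAD/Cd5l tg/wt, 556, 529 and 552 CPM across 5xFAD and 533, 553 and 595 CPM across wild-type libraries. Meis2, which striatal neurons express, had 124, 154 and 136 CPM across 5xFAD/Cd5l tg/wt, 160.42, 141 and 151 CPM across 5xFAD and 147, 149.88 and 168 CPM across wild-type libraries. Meis3, at 25.9, 23.3 and 21.7 CPM across 5xFAD/Cd5l tg/wt, 20.1, 19.8 and 20.9 CPM across 5xFAD and 22.96, 23.5 and 21.2 CPM across wild-type libraries, was lowest in the 5xFAD libraries, which overlapped neither other genotype, and it did not pass in any comparison. Hmbox1, a telomere-binding homeobox protein, was at 51.1 to 71.9 CPM and Zhx3 at 58.5 to 83.3 CPM over the 9 libraries. The 12 zinc-finger and other broadly expressed genes summed to 304, 308 and 295 CPM across 5xFAD/Cd5l tg/wt libraries. Their sums were 336, 328 and 325 CPM across 5xFAD and 309, 317 and 345 CPM across wild-type libraries. All 5xFAD/Cd5l tg/wt sums were below those of the other genotypes, closest at 308 against 309 CPM.

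Factors outside the neuronal lists were few. Nkx6-2, which acts in maturing oligodendrocytes, had 22.8, 10.4 and 14.1 CPM across 5xFAD/Cd5l tg/wt, 13.9, 18.5 and 20.9 CPM across 5xFAD and 25.4, 19.5 and 18.9 CPM across wild-type libraries. Nkx2-2, needed for oligodendrocyte differentiation, had 5.99, 5.26 and 4.796 CPM across 5xFAD/Cd5l tg/wt, 5.82, 6.17 and 6.63 CPM across 5xFAD and 6.395, 6.45 and 6.64 CPM across wild-type libraries, and the related Nkx2-9 ranged over 0.202 to 1.798 CPM. Prrx1, a mesenchymal factor, had 9.25, 7.69 and 7.67 CPM across 5xFAD/Cd5l tg/wt, 7.15, 6.62 and 5.89 CPM across 5xFAD and 5.93, 6.75 and 8.92 CPM across wild-type libraries, and Msx1, a target of bone morphogenetic protein signalling, had 4.33, 6.27 and 4.401 CPM across 5xFAD/Cd5l tg/wt, 2.98, 4.43 and 4.95 CPM across 5xFAD and 4.19, 3.71 and 2.42 CPM across wild-type libraries. The 5xFAD/Cd5l tg/wt libraries did not overlap 5xFAD for Prrx1 or wild-type for Msx1, and neither gene passed in any comparison. Of untested genes, Six2 had 11, 6 and 11 counts across 5xFAD/Cd5l tg/wt, 6, 12 and 4 counts across 5xFAD and 7, 3 and 5 counts across wild-type libraries, and Msx2 had 7, 7 and 6 counts across 5xFAD/Cd5l tg/wt, 7, 1 and 10 counts across 5xFAD and 6, 9 and 16 counts across wild-type libraries. Dlx4, Gsx1 and Lhx3 had at most 14 counts in any library.

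Between 5xFAD/Cd5l tg/wt and 5xFAD mice, 2 homeobox genes rose and 4 fell out of 80 tested. Over all 17575 tested genes 6.23% passed, 5.34% as rises and 0.888% as falls, so that the share of homeobox genes was below the background for rises (2.5%) and above it for falls (5%). The median log2 fold change of the tested homeobox genes was -0.21, and that of all tested genes 0.01. Calls used edgeR's quasi-likelihood test with all 9 libraries and Benjamini-Hochberg adjustment over all tested genes at 0.05. Before adjustment the p was under 0.05 for 19 of the 80 homeobox genes and for 3914 of all 17575 tested genes.

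Six3, a factor of the anterior forebrain and eye field that is kept in striatal and hypothalamic neurons (chromosome 17, 85921036 to 85936730), had 13.7, 10.7 and 12.4 CPM across the 3 mice of 5xFAD/Cd5l tg/wt, 20.5, 18.5 and 19.6 CPM across those of 5xFAD, and 16.5, 16.8 and 17.1 CPM across those of wild-type. The 3 genotypes did not overlap, with 5xFAD/Cd5l tg/wt lowest and 5xFAD highest. Six3 fell by 0.67 ± 0.11 on the log2 scale (SE, adjusted p = 0.00514), and it passed without any 1 of the 9 libraries. Without the 3 libraries named above its log2 fold change was -0.52 ± 0.14 (SE), which did not pass with a lone 5xFAD/Cd5l tg/wt library. Its antisense neighbour Six3os1 (Six3 opposite strand) overlaps it on the other strand and was at 5.13, 3.91 and 4.06 CPM across 5xFAD/Cd5l tg/wt, 6.35, 7.07 and 7.43 CPM across 5xFAD and 5.81, 6.26 and 5.39 CPM across wild-type libraries. Six3os1 also fell, by 0.67 ± 0.17 on the log2 scale (SE, adjusted p = 0.0358).

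Isl1, a LIM factor of cholinergic, striatal and hypothalamic neurons (chromosome 13, 116434817 to 116446225), had 3.46, 2.16 and 1.47 CPM across the 3 mice of 5xFAD/Cd5l tg/wt, 4.77, 4.49 and 5.35 CPM across those of 5xFAD, and 5.12, 5.11 and 5.05 CPM across those of wild-type. All 5xFAD/Cd5l tg/wt libraries were below all others, and libraries 2 and 3 were the lowest. It fell by 1.05 ± 0.26 on the log2 scale (SE, adjusted p = 0.0342). Lhx9, a LIM factor of thalamic and hypothalamic neurons (chromosome 1, 138752924 to 138776315), had 7.46, 4.99 and 5.64 CPM across the 3 mice of 5xFAD/Cd5l tg/wt, 10.5, 10.2 and 11.2 CPM across those of 5xFAD, and 5.81, 8.33 and 8.78 CPM across those of wild-type, and fell by 0.82 ± 0.19 on the log2 scale (SE, adjusted p = 0.0268). Its 5xFAD libraries were above all others, and 5xFAD/Cd5l tg/wt overlapped wild-type. Neither gene passed without the 3 libraries named above, where Isl1 was at -0.51 ± 0.27 (SE, adjusted p = 0.309) and Lhx9 at -0.53 ± 0.22 (SE, adjusted p = 0.212). Both calls were also lost when any 1 of the 5xFAD libraries, or mouse 2 or 3 of 5xFAD/Cd5l tg/wt, was left out (adjusted p = 0.0688 to 0.115). Isl1 also did not pass when the wild-type libraries were kept out of the fit (adjusted p = 0.0572).

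Zhx2, a zinc-finger homeobox repressor (chromosome 15, 57558061 to 57703228), had 14.2, 14.8 and 16.7 CPM across the 3 mice of 5xFAD/Cd5l tg/wt, 21.97, 20.6 and 20.8 CPM across those of 5xFAD, and 16.1, 19.3 and 18.3 CPM across those of wild-type, and fell by 0.47 ± 0.11 on the log2 scale (SE, adjusted p = 0.0251). Its 5xFAD libraries were above all others. Without the 3 libraries named above its log2 fold change was as large, at -0.58 ± 0.15 (SE, adjusted p = 0.051), but did not pass. Leaving out any 1 of the 5xFAD libraries, or mouse 2 of 5xFAD/Cd5l tg/wt, also ended the call (adjusted p = 0.052 to 0.116).

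Pknox2, a TALE partner of PBX proteins (chromosome 9, 36802278 to 37058703), averaged 70.2 ± 3.4 CPM in 5xFAD/Cd5l tg/wt, 55.7 ± 1.26 CPM in 5xFAD and 57.5 ± 2.97 CPM in wild-type libraries (SD, n = 3 each). It had 66.6, 73.4 and 70.4 CPM in 5xFAD/Cd5l tg/wt libraries, against 57.0, 55.6 and 54.5 CPM in 5xFAD libraries, and rose by 0.33 ± 0.07 on the log2 scale (SE, adjusted p = 0.0189). All 5xFAD/Cd5l tg/wt libraries were above those of the other genotypes. The call was lost when any of the 5xFAD libraries, or mouse 2 or 3 of 5xFAD/Cd5l tg/wt, was left out (adjusted p = 0.0615 to 0.099). It was also lost when the 3 libraries named above were left out together, where it was at 0.24 ± 0.09 (SE, adjusted p = 0.163).

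Hdx, the highly divergent homeobox gene, whose product is little characterised (chromosome X, 110479628 to 110606776), was the 1 member that passed in more than 1 comparison. It had 11.5, 10.6 and 12.2 CPM across the 3 mice of 5xFAD/Cd5l tg/wt, 5.096, 7.24 and 7.03 CPM across those of 5xFAD, and 11.6, 12.6 and 9.75 CPM across those of wild-type. The 5xFAD libraries were below all others, and the other genotypes overlapped. Hdx rose by 0.82 ± 0.16 on the log2 scale (SE, adjusted p = 0.0127) in 5xFAD/Cd5l tg/wt against 5xFAD. It fell by 0.81 ± 0.16 on the log2 scale (SE, adjusted p = 0.0178) in 5xFAD against wild-type, and these comparisons share the 5xFAD libraries. Hdx did not pass in the first comparison without 5xFAD library 1 (adjusted p = 0.0707), 5xFAD/Cd5l tg/wt library 3 (0.0575) or the 3 libraries named above (0.0543, log2 fold change 0.81). It did not pass in the second without 5xFAD library 1 (0.0923) or wild-type library 1 (0.06) or 2 (0.0811), and without the 3 libraries named above it was at -0.89 ± 0.17 (SE, adjusted p = 0.00684). The nuclear-retained RNAs Malat1 and Meg3 were likewise lowest in the 5xFAD libraries, whereas Neat1 had 83.3 CPM in 5xFAD library 3 and 82.7 CPM in wild-type library 3. The 3 RNAs, of which Meg3 is the most abundant, had sums of 1890.23, 2914 and 2851 CPM across 5xFAD/Cd5l tg/wt, 645, 614 and 742 CPM across 5xFAD and 1888, 2305 and 1665 CPM across wild-type libraries, and their part in the Hdx result was not tested.

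**Figure D3:**
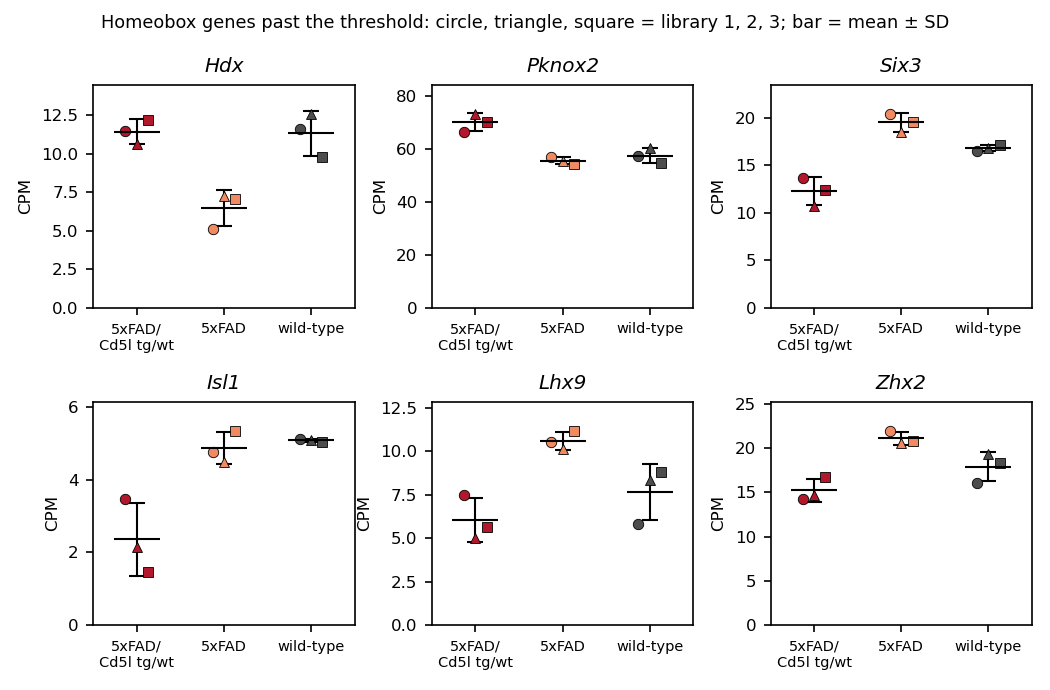
Points are CPM of single libraries on linear axes from 0, and bars are the mean ± SD of 3 libraries per genotype. Hdx is lowest in 5xFAD libraries, Pknox2 is highest in 5xFAD/Cd5l tg/wt libraries, and Six3, Isl1, Lhx9 and Zhx2 are lower in 5xFAD/Cd5l tg/wt than in 5xFAD libraries.

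By list, 3 of 9 tested hypothalamic genes fell in 5xFAD/Cd5l tg/wt against 5xFAD mice (Six3, Isl1 and Lhx9) and all 9 had negative log2 fold changes, with a median of -0.67. Over all 17575 tested genes 0.888% fell and 5.34% rose, and the median log2 fold change was 0.01. Of 8 tested diencephalic and Iroquois genes, 1 fell (Lhx9), all 8 were negative and the median was -0.89. In the midbrain and cerebellum list none of 10 tested genes passed, 9 were negative and the median was -1.01. None of 6 passed in the hindbrain and brainstem list (5 negative, median -1.20). In the forebrain interneuron and striatal list 2 of 15 fell (Six3 and Isl1) and the median was -0.30. The cortex and hippocampus list had none of 4 (median 0.19), the TALE cofactors 1 rise of 12 (Pknox2, median 0.00), and the broadly expressed list 1 rise and 1 fall of 12 (Hdx and Zhx2, median -0.12). None passed of 3 oligodendrocyte genes (median -0.22), of 10 vessel, meningeal and mesenchymal genes (median 0.11), or of the 1 tested gene of the pituitary, pineal and eye list, Lhx4, which had no count in 5xFAD/Cd5l tg/wt libraries 1 and 2. None of the 48 germline and early embryo genes was tested, and 7 of them had any count. Several genes stand in more than 1 list, so that Six3, Isl1 and Lhx9 are each counted more than once. Genes of a list were measured in the same libraries and are not separate replicates. Without the 3 libraries named above, the medians over the same genes were 0.01 for the hypothalamic list (4 of 9 negative), -0.10 for the diencephalic and Iroquois list (4 of 8), -0.27 for the midbrain and cerebellum list (7 of 10), 0.02 for the hindbrain and brainstem list (3 of 6), -0.09 for the forebrain list (8 of 15) and -0.48 for the cortex and hippocampus list (3 of 4).

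The differences in regional genes were smaller without the 3 libraries named above. Those libraries had been picked with the values of these genes known, so a smaller difference follows in part from that choice. The median log2 fold change of the same 80 homeobox genes in 5xFAD/Cd5l tg/wt against 5xFAD was -0.21 with all 9 libraries and 0.01 without those 3. Leaving out Hoxb3, Lhx4 and Prrxl1, which had no count in 5xFAD/Cd5l tg/wt library 1, 14 genes were below -1 with all libraries and 1 without the 3. Otp was at -1.35 ± 0.63 (SE, adjusted p = 0.234) with all libraries and at 0.01 ± 0.31 (SE, adjusted p = 0.985) without the 3, and Irx2 at -1.65 ± 0.52 (SE, adjusted p = 0.0823) and -0.62 ± 0.32 (SE, adjusted p = 0.308). In that smaller fit the lone 5xFAD/Cd5l tg/wt library is assumed to vary like the libraries of the other genotypes. Shox2 passed in it, at -0.84 ± 0.20 (SE, adjusted p = 0.0396).

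**Figure D4:**
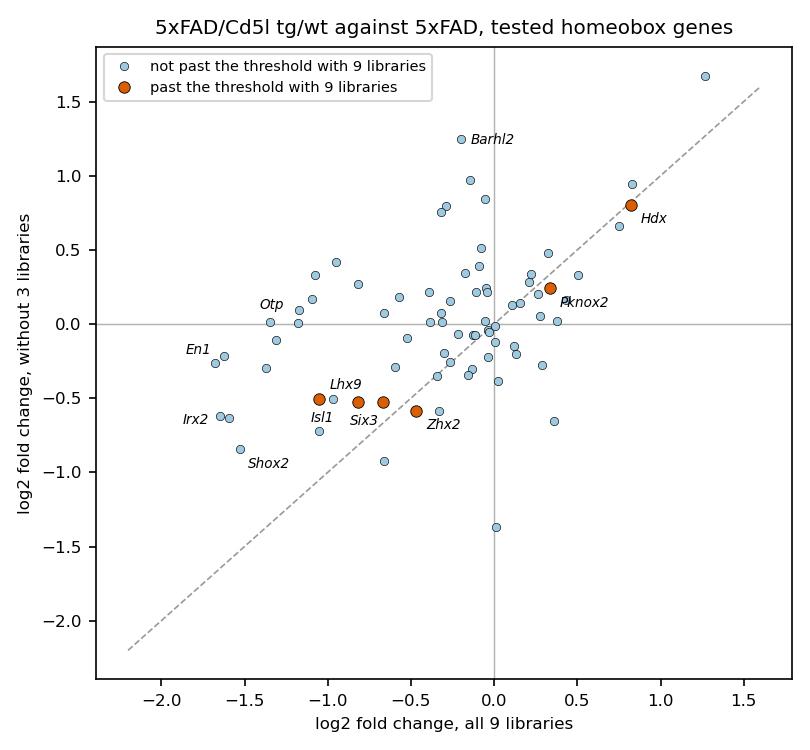
Each point is 1 of 77 tested homeobox genes, with its log2 fold change in 5xFAD/Cd5l tg/wt against 5xFAD from all 9 libraries on the x axis and from the 6 libraries left without 5xFAD/Cd5l tg/wt 2 and 3 and wild-type 3 on the y axis. The dashed line marks equal values. Otp, Irx2 and En1 lie above the line, with x values from -1.68 to -1.35 and y values from -0.62 to 0.01, while Hdx, Pknox2 and Zhx2 lie near it.

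In 5xFAD against wild-type mice no homeobox gene rose and 1 of 80, Hdx, fell (1.25%), where 1.06% of all tested genes rose and 2.44% fell (3.5% in all). Without an adjustment 7 of 80 homeobox genes had a p under 0.05, against 2861 of all 17575 tested genes. Among homeobox genes DESeq2 and limma-voom also called Hdx alone. The medians were -0.04 for homeobox genes and -0.01 for all tested genes. En2 was at -2.33 ± 0.68 (SE, adjusted p = 0.0927), and without the 3 libraries named above at -0.83 ± 0.32 (SE, adjusted p = 0.147). Without the 3 libraries named above, Shox2 rose by 0.67 ± 0.15 (SE, adjusted p = 0.0194), and Hdx and Mkx fell, Mkx at -0.50 ± 0.12 (SE, adjusted p = 0.0291). Mkx is a TALE factor best known from tendon. Shox2 had 12.4, 12.5 and 11.2 CPM in 5xFAD libraries, against 8.43 and 6.81 CPM in wild-type libraries 1 and 2, and 12.6 CPM in wild-type library 3.

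In 5xFAD/Cd5l tg/wt against wild-type mice no homeobox gene passed in edgeR, where 1.38% of all tested genes rose and 0.199% fell (1.58% in all). An unadjusted p under 0.05 was seen for 20 of 80 homeobox genes and for 2177 of all 17575 tested genes. DESeq2 called 1 rise (Pknox2) and 3 falls (Hoxb3, Isl1 and Six3) among the homeobox genes, and limma-voom 3 falls (Hoxb3, Isl1 and Lhx4). The medians were -0.22 for homeobox genes and 0.00 for all tested genes. The genes with the smallest adjusted p in edgeR were Isl1, at -1.12 ± 0.26 (SE, adjusted p = 0.0593), Lhx4 (adjusted p = 0.0659), Hoxb3 (0.066) and Six3, at -0.45 ± 0.11 (SE, adjusted p = 0.0832). The 5xFAD/Cd5l tg/wt libraries held no count of Hoxb3 and 2 of Lhx4 in all, so no fold change is given for either. Pknox2 was at 0.29 ± 0.07 (SE, adjusted p = 0.0855). Without the 3 libraries named above no homeobox gene passed and the median of the same 80 genes was -0.03. Isl1 was then at -0.57 ± 0.28 (SE, adjusted p = 0.398), Six3 at -0.28 ± 0.15 (SE, adjusted p = 0.435) and Pknox2 at 0.17 ± 0.10 (SE, adjusted p = 0.479). Leaving out mouse 1 of 5xFAD/Cd5l tg/wt, which leaves the 2 libraries low in midbrain and diencephalic genes, gave 16 falls and 1 rise among 88 tested homeobox genes. All 17942 genes tested in that setting gave 318 falls and 368 rises.

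Of the 80 tested homeobox genes, 36 overlap a gene on the other strand in the table's own coordinates, and for 15 that gene was itself tested. Among the genes named here these are Zhx3 with Plcg1, Nkx6-2 with Inpp5a, Hopx with Hopxos, Dlx1 with Dlx1as, Nkx2-2 with Nkx2-2os and Emx2 with Emx2os, besides Six3 and Shox2. Without strand information, reads of such pairs cannot be told apart.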

How the data were processed

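The authors deposited 1 table for the 9 libraries, with whole-number read counts and a gene length for each of 56748 genes and the transcription-factor family by which the homeobox genes were chosen. GRCm39 (mm39) is the build in the submitters' processing notes. The sources used here do not give the aligner, counting tool, strand setting or handling of multi-mapping reads, so close paralogs may share reads. Each library is titled as a separate mouse.

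Filtering with filterByExpr of edgeR (at least 10 counts, total at least 15) left 17575 genes, and what it took out was 0.161% of the counts or less per library. After TMM scaling, a single edgeR quasi-likelihood model held all 9 libraries (edgeR 4.0.16, limma 3.58.1, DESeq2 1.42.0 and R 4.3.3, with Python 3.11.15 and matplotlib 3.10.9). The SE is the size of the log2 fold change divided by the square root of F. The model was also run on simulated counts, drawn for each gene independently and without regional differences between libraries. That run therefore does not bear on calls that such differences may affect. Summed levels of lists were described without a test. Replicates differed by at least 3.31 times the sampling noise (chi-square over its degrees of freedom), and each was counted as 1 sample.

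The genes, lists, tests, the 3 libraries left out together and the rule for named genes were chosen with earlier results of these data known. The rule took genes past the threshold, the 15 with the widest range among those of at least 0.5 CPM, the 10 highest per kilobase, up to 3 per list, and untested genes with at least 10 counts in a library. Some genes that the rule took are not reported here. Meis1, Mkx and Gbx1 were named after their values were seen. Of the symbols on the lists, 21 were not homeobox members, 20 of them because the table gives another family.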

Additional observations from a re-analysis of the deposited data

How the results depend on the processing

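Counts of called genes are given for 5xFAD against wild-type, then 5xFAD/Cd5l tg/wt against 5xFAD, then 5xFAD/Cd5l tg/wt against wild-type. With no filter on low counts 1354, 2063 and 1062 of 31362 genes passed, of which 958, 701 and 540 were falls. Of 157 homeobox genes 19, 17 and 35 then fell, and 0, 3 and 1 rose. DESeq2 called 472 genes in the last comparison (334 rises and 138 falls), with 1 homeobox rise and 3 falls. With limma-voom 7 of 80 homeobox genes fell in the second comparison and 3 in the last, against 182 and 38 of all 17575 tested genes. The 6 compared libraries alone gave 176 genes in the last. In the second they gave 3 falls among 73 homeobox genes, where 183 of all 17058 tested genes fell. Without the 3 libraries that differ in regional genes, 1154 and 630 genes passed in the first and second comparisons; homeobox calls were 1 rise and 2 falls, then 0 rises and 1 fall. Leaving out each replicate in turn gave 206 to 850, 278 to 2069 and 158 to 686 genes. Homeobox falls then ranged over 0 to 4, 1 to 20 and 0 to 16, and rises over 0 to 2 in the second and 0 to 1 in the last. The 4 falls, of 88 tested homeobox genes, came without wild-type replicate 2, where 178 of all 17929 tested genes fell. The 20 and 16 falls, of 88 tested homeobox genes, came without 5xFAD/Cd5l tg/wt replicate 1, where 693 and 318 of all 17942 tested genes fell. The cause of these changes was not tested. With the replicate number as a block, 506, 836 and 240 genes passed and the homeobox counts were the same. Between genotypes, deviations of same-numbered libraries correlated at -0.100 to 0.154 and those of differently numbered libraries at -0.160 to 0.146. The numbers were not taken as pairs. No fold change of the 6 called genes reversed under any setting.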
